A study of Homo sapiens with 28 samples.

Results

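MYB, BCL2, SP1 and ASB2 are 4 genes with a place in leukaemia whose messenger RNAs are known substrates of the enzymes that write or erase N6-methyladenosine (m6A). They were examined in chromatin-associated RNA (caRNA), which copurifies with chromatin and holds much RNA that is still being made. The genes were taken by name from 62663 genes annotated on hg38 by GENCODE release 44. The rule that names them uses no measured value, but the 4 genes were chosen with earlier results of these data known. A peak was assigned to a gene where its summit lay from 1000 bases upstream of the gene start to the gene end, with the strands kept apart. Of the 4 genes, 3 held a peak on their own strand (a sense peak) in at least 2 libraries, as did 17210 genes in all. In total 204 sense peaks and 6 antisense peaks fell in the 4 genes.

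The series covers 28 samples of m6A immunoprecipitation sequencing (MeRIP-seq), of which the 14 immunoprecipitated (IP) libraries came with a peak list each and the 14 input libraries are not analysed here. The 6 groups were unmodified HepG2 (WT, n = 2) and K562 (WT, n = 2), K562 Control (n = 2) and NB4 Control (n = 3) with a non-targeting short hairpin RNA, and K562 RBFOX2 KD (n = 2) and NB4 RBFOX2 KD (n = 3) with a hairpin against RBFOX2. Hairpins of the Control and KD cells were delivered by lentivirus, and stable cells were selected with puromycin, so both groups share the vector and the selection. HepG2 cells derive from a liver tumour, K562 cells from chronic myelogenous leukaemia and NB4 cells from acute promyelocytic leukaemia, and the study asks whether RBFOX2, an RNA-binding protein, directs m6A writing to promoter RNA.

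m6A is placed on nascent RNA by a methyltransferase complex with METTL3 as its catalytic subunit, within the sequence context named DRACH (D is A, G or T, R is A or G, H is A, C or T), and most often in long internal exons and around stop codons. FTO and ALKBH5 remove the mark, and reader proteins tie it to the splicing, decay or translation of the RNA. MYB is a transcription factor that keeps blood progenitors dividing, SP1 is a transcription factor that binds GC-rich promoters, BCL2 is the founding inhibitor of apoptosis, and ASB2 is the substrate-binding subunit of a cullin-5 ubiquitin ligase that retinoic acid induces in promyelocytic cells. In acute myeloid leukaemia METTL14, the partner of METTL3, is known to act on MYB transcripts, METTL3 on those of BCL2 and SP1, and FTO on ASB2.

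The lists held 22700 to 44088 peaks on chromosomes 1 to 22, X and Y, and the depth recovered from them ran from 10.8 to 30.04 M effective reads (M, mega). The HepG2 lists were the shortest and the K562 WT lists the longest. The summed peaks of the marker lists followed the labels of the 3 lines, although not every single marker did. The 12 hepatocyte markers summed to 22 and 36 sense peaks in HepG2 and to 0 to 4 elsewhere, although ALB, AFP and APOH had none in any library. The 12 erythroid markers held 32 to 48 distinct sense peaks in K562 and 1 to 9 elsewhere, with ALAS2 at 0 throughout. The annotated spans of HBG2 and HBE1 overlap, and peaks of both were counted once. HBG2 held a mean of 16 to 20 peaks in the K562 groups and HBE1 a mean of 16 to 19, with the same mean percentiles. EPOR, NFE2 and TFRC were also listed in every NB4 library. TFRC had a mean of 4 peaks in NB4 Control against 2.5 in K562 Control. The 12 promyelocytic markers summed to 28 to 35 in NB4 and to 2 to 9 elsewhere, with ELANE and LYZ at 0 throughout. MS4A3 was listed in 1 K562 WT library and in no NB4 library. CSF3R and CEBPA were also listed in both HepG2 libraries, and SPI1 and CD33 in all K562 libraries. Peak lists do not measure the RNA level of RBFOX2, so the knockdown itself could not be checked. RBFOX2 RNA held 3 and 2 sense peaks in K562 Control, 3 in each K562 KD library, 1, 2 and 2 in NB4 Control and 2, 1 and 1 in NB4 KD.

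Merging overlapping peaks of the 14 lists by strand gave 39 sense regions in the 4 genes, of which 5 lay in MYB, 5 in SP1, 29 in BCL2 and 0 in ASB2. No other annotated gene overlapped any of the 43 regions on the 2 strands together. The sequences that follow show the DRACH nearest to the strongest summit of the regions that the values below turn on, each read 5′ to 3′ on the strand of the gene from hg38, with the motif in capitals. The first lies in coding exon 3 of SP1 and the second beside its stop codon.
SP1 exon 3, chr12:53383313-53383341, plus strand: gtggggcccaatGGACAggtcagttggca
SP1 stop codon, chr12:53411270-53411298, plus strand: ggccatacccctTAACCccgggatgcaag
MYB stop codon, chr6:135218041-135218069, plus strand: ttcctcaacatgAAACTtttcatgaatgg
MYB exon 10, chr6:135197128-135197156, plus strand: tgagagttcactTGACCcacccaaggtct
MYB intron 1, chr6:135183189-135183217, plus strand: ggcgggagccttGAACCtgcctcagggga
BCL2 exon 2, chr18:63318225-63318253, minus strand: cagggacggggtGAACTgggggaggattg
BCL2 intron 2, chr18:63218656-63218684, minus strand: ggaggatggggaTGACTggaggatgggga
BCL2 3′ UTR, chr18:63127338-63127366, minus strand: ttcctatcagaaGGACAtggtgaaggctg
BCL2 3′ UTR, distal, chr18:63124028-63124056, minus strand: accggttcatctGGACTgccccagaaaaa

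The motif base A lay 6 bases from the summit in SP1 exon 3, 4 bases from it in BCL2 exon 2 and 5 bases from it in the BCL2 3′ UTR. It lay 7 bases away in the distal BCL2 3′ UTR, 21 in BCL2 intron 2 and 14 at the SP1 stop codon. In MYB it lay 13 bases away at the stop codon, 34 in exon 10 and 50 in intron 1. Within 75 bases of the strongest summit, a DRACH stood in 36 of the 39 sense regions, against 95.5% of all 86481 merged regions of the 14 lists. Over all merged regions this window of 151 bases held a mean of 3.81 DRACH. GGACT, the commonest form of the motif in mammals, stood in 6 of the 39, all of them in BCL2, against 23.3% of all regions. The copies nearest to the summit of each gene's strongest region, by mean percentile over the libraries, follow, in capitals as before, at distances of 530, 467 and 4475 bases. Those of BCL2 and SP1 lie inside the region of that summit, and that of MYB lies in intron 15, outside every MYB region. At any distance from the summit, a GGACT lay inside 4 of the 5 MYB regions, 7 of the 29 BCL2 regions and 1 of the 5 SP1 regions. The share of all regions with a GGACT at any distance was not computed.
BCL2 GGACT, chr18:63317691-63317719, minus strand: gggaggtttcagGGACTgcttatgaacca
SP1 GGACT, chr12:53382840-53382868, plus strand: ctgtcacctcagGGACTaccatcagttct
MYB GGACT, chr6:135213553-135213581, plus strand: gagtcaacctaaGGACTatattacaaagg

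For RBFOX2 the windows of the same size were searched for 2 motifs. TGCATG, the canonical RBFOX2 site, stood in 3 of the 39 (2 in BCL2 and 1 in SP1) against 3.56% of all regions. AGATG, which the study links with RBFOX2 binding, stood in 17 of the 39 against 22.8%. Of these, 15 were among the 29 BCL2 regions, 1 among the 5 of MYB and 1 among the 5 of SP1. The motifs were searched on the strand of the peak. Windows of the 39 sense regions did not overlap each other, while those of neighbouring summits elsewhere can.

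**Figure D1:**
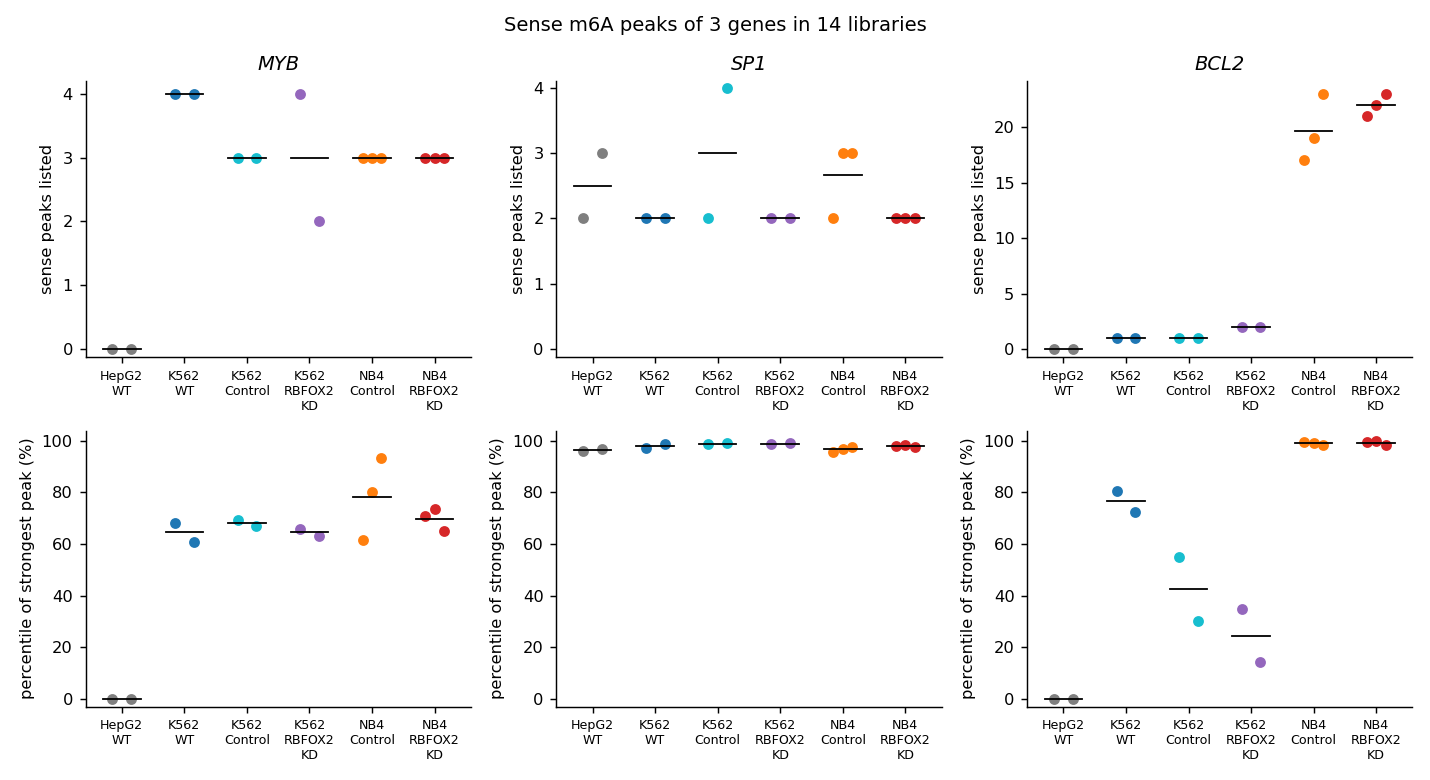
Sense peaks of MYB, SP1 and BCL2 in the 14 libraries. The upper row plots the number of sense peaks listed and the lower row the percentile of the strongest sense peak within its own list (percent, 0 where none is listed), by group on the x axis; points are libraries and bars group means. SP1 stayed above 95 percent in every library, MYB and BCL2 were at 0 in both HepG2 libraries, and BCL2 held 17 to 23 peaks in the NB4 libraries against 1 or 2 in the K562 libraries.

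MYB (chr6:135181308-135219173, plus strand, 16 exons) had no sense peak in either HepG2 library and at least 2 in each of the 12 leukaemia libraries. The lists held 4 and 4 MYB peaks in K562 WT, 3 and 3 in K562 Control, 4 and 2 in K562 KD and 3 in each of the 6 NB4 libraries. Being listed in all 12 leukaemia libraries and in no HepG2 library held for 595 (2.97%) of the 20033 protein-coding genes, MYB and BCL2 among them. A gene without a peak may carry less m6A or less RNA on chromatin, and the lists cannot tell these apart. The strength of a gene is given as the percentile of its strongest sense peak, which is its rank from the bottom by −log10 q-value (mean rank for ties) as a percent of the library's peaks, and is 0 where no peak is listed.

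For MYB this percentile was 68.2 and 61.0 in K562 WT, 69.4 and 67.2 in K562 Control, 66.0 and 63.0 in K562 KD, 61.4, 79.997 and 93.4 in NB4 Control and 70.9, 73.4 and 65.0 in NB4 KD. The highest and the lowest of the NB4 Control libraries thus enclosed all 9 of the other leukaemia values but 1. Between K562 WT and HepG2 the difference was 64.6 percentile points, and the groups did not overlap for either measure (exact permutation test, two-sided, p = 0.333, the smallest that 2 against 2 libraries allow, adjusted over all genes p = 0.462 for percentile and 0.600 for number). In this comparison 55.4% of the 17210 genes tested were higher in K562 WT by percentile without overlap and 43.8% by number, and 16.8% and 11.8% were lower.

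The regions listed within MYB differed between K562 and NB4. One region lay at the stop codon in the last exon, 16 of 16 (chr6:135217816-135218220), and it was the only MYB region listed in all 12 leukaemia libraries. Its strongest summits in the 12 libraries lay within 79 bases of each other, and that of K562 Control 1 stood 65 bases past the stop codon. Its fold over the local background was 6.03 and 4.16 in K562 WT, 11.6 and 8.01 in K562 Control, 8.71 and 8.56 in K562 KD, 2.69, 2.09 and 2.15 in NB4 Control and 2.24, 3.21 and 5.89 in NB4 KD. Its percentile averaged 68.3 ± 1.56 (SD, n = 2) in K562 Control and 16.9 ± 8.24 (SD, n = 3) in NB4 Control, which did not overlap (exact permutation test, two-sided, p = 0.1, which is the lowest possible, adjusted p = 0.288 over 67518 regions). Across all these regions 28.6% were lower in NB4 Control without overlap and 13.8% higher.

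A second MYB region in coding exon 10 (chr6:135196980-135197297) was listed in all 6 K562 libraries and in no other, a pattern shown by 6.32% of all regions. Its percentile ran from 43.6 to 68.2 and its fold from 3.93 to 5.84, and its 6 summits lay within 3 bases of each other. In the reverse direction, the part of intron 1 at chr6:135182850-135183267 was listed in all 6 NB4 libraries, at percentiles from 61.4 to 93.4. It was also listed in both K562 WT libraries, at 60.8 and 39.3, but in none of the 4 K562 Control and KD libraries. That last pattern, present in both K562 WT libraries and absent from all K562 hairpin libraries, was shown by 8.28% of all regions. The strongest summit of this region lay 1845 bases from the gene start.

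Closest to the start of MYB, a region at chr6:135181483-135181977 opened intron 1 and was listed in 11 of the 12 leukaemia libraries, all but K562 KD 2. It was among the weaker regions, with folds from 2.11 to 4.65 and percentiles from 13.2 to 49.2. One further intron 1 peak appeared in K562 KD 1 alone, at percentile 26.3. Antisense to MYB, K562 WT 2 and NB4 Control 2 each held 1 peak, at different positions and at percentiles 16.2 and 11.2.

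SP1 (chr12:53380176-53416446, plus strand, 6 exons) was the only one of the 4 genes listed in all 14 libraries, and 2 of its regions were listed in each of them. Of all merged regions 8.91% were listed in all 14, and of protein-coding genes 25.4% had a sense peak in all 14. The stronger SP1 region (chr12:53381602-53383827) lay in coding exon 3 of 6, the exon that encodes most of the glutamine-rich activation domains. The summits of the 14 libraries fell within 22 bases of each other, from 53383300 to 53383322, although each list was called on its own.

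The percentile of the SP1 exon 3 peak was 96.1 and 97.0 in HepG2, 97.1 and 98.8 in K562 WT, 98.7 and 99.0 in K562 Control, 98.7 and 99.0 in K562 KD, 95.8, 97.0 and 97.7 in NB4 Control and 98.1, 98.4 and 97.4 in NB4 KD. The peak therefore stood in the top 5 percent of its list in every library. Its fold was 6.09 and 7.52 in HepG2, 12.8 and 16.5 in K562 WT, 28.4 and 24.0 in K562 Control, 26.5 and 29.6 in K562 KD, 12.98, 12.3 and 12.9 in NB4 Control and 11.7, 12.9 and 11.5 in NB4 KD. Folds of lists called at different depths are not on 1 scale, and the order of the groups by fold was not their order by percentile.

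K562 WT was above HepG2 by 1.44 percentile points without overlap (p = 0.333 by exact permutation, two-sided, adjusted p = 0.462), and the sign turned to −0.140 when all lists were shortened to 22700 peaks. NB4 Control was below K562 Control by 1.99 points without overlap (p = 0.2 in the exact permutation test, adjusted p = 0.368 over all genes), with 35.0% of genes lower and 20.0% higher in that comparison.

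The other constant SP1 region lay at the stop codon in the last exon (chr12:53410857-53411436), with its strongest summit 61 bases past the stop codon. Its percentile was 63.8 and 88.9 in HepG2, 86.2 and 82.5 in K562 WT, 70.0 and 81.3 in K562 Control, 82.2 and 68.9 in K562 KD, 89.4, 88.5 and 85.3 in NB4 Control and 91.6, 91.3 and 91.1 in NB4 KD. The 6 NB4 values lay above all 4 K562 hairpin values. NB4 Control exceeded K562 Control by 12.1 points (p = 0.1 by exact permutation, adjusted p = 0.288 over all regions). The remaining 3 SP1 regions were each listed in 1 or 2 libraries. They lay in intron 3 (NB4 Control 2 and 3, percentiles 21.8 and 44.4), in coding exon 4 (HepG2 WT 2 and K562 Control 2, 36.6 and 67.9) and in coding exon 5 (K562 Control 2, 32.6). No antisense peak was listed in SP1.

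**Figure D2:**
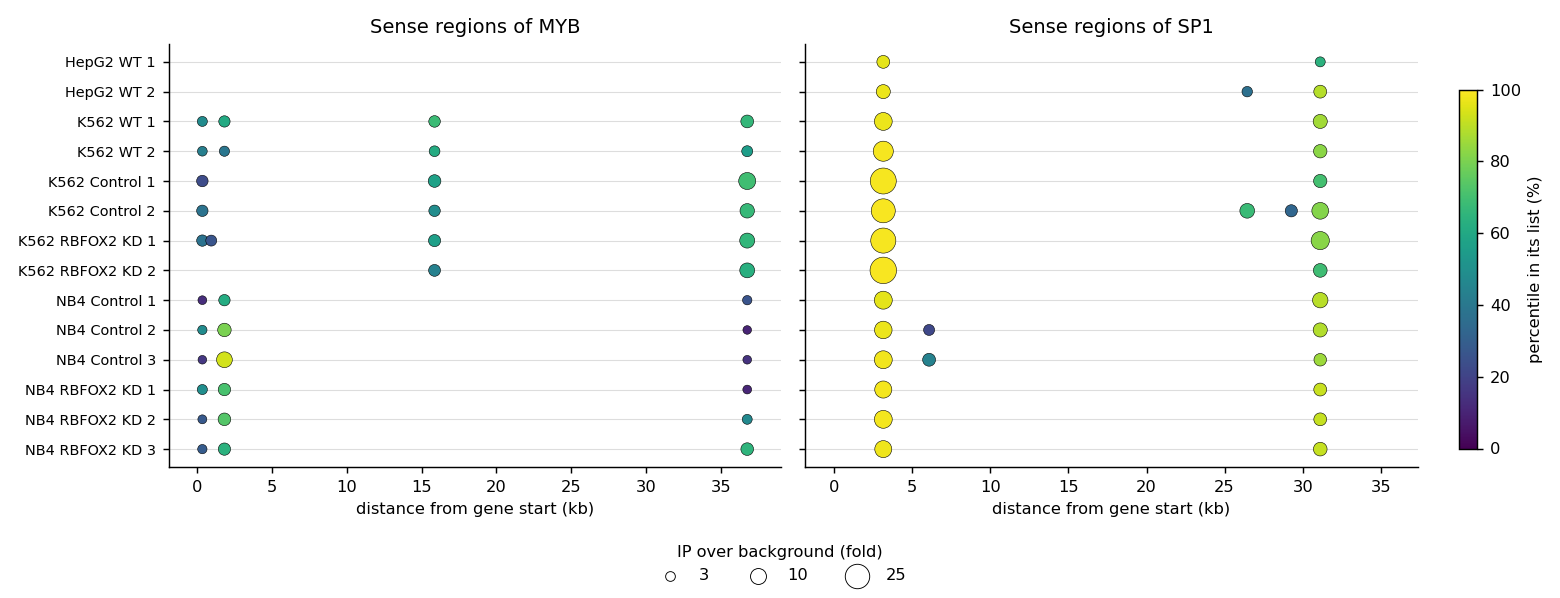
Sense regions of MYB and SP1 along the genes in the 14 libraries. The x axis is the distance of the region's strongest summit from the gene start (kb) and each row is a library; a dot means that the library lists the region, its area grows linearly with the fold of IP over background and its colour gives the percentile in the list. The MYB dot near 16 kb appears in K562 rows only, the dot at the end of MYB is stronger in K562 than in NB4 Control, and both constant SP1 regions run through all 14 rows.

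BCL2 ranged most widely of the 4 genes. It had no sense peak in HepG2, 1 in each of the K562 WT and K562 Control libraries, 2 in each K562 KD library, 17, 19 and 23 in NB4 Control and 21, 22 and 23 in NB4 KD. In the 6 NB4 libraries between 99.4% and 99.7% of all tested genes had fewer sense peaks. BCL2 is a long gene of 196783 bases and 3 exons (chr18:63123346-63320128, minus strand). Among the 1319 tested genes at least as long, between 95.1% and 98.0% had fewer sense peaks in the NB4 libraries, where their median was 1 peak.

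The percentile of the strongest BCL2 peak was 80.5 and 72.5 in K562 WT, 55.1 and 30.05 in K562 Control, 34.7 and 14.2 in K562 KD, 99.7, 99.2 and 98.2 in NB4 Control and 99.7, 99.8 and 98.5 in NB4 KD. NB4 Control exceeded K562 Control by 18.7 peaks and by 56.5 percentile points, both without overlap (exact permutation test, two-sided, p = 0.1 for each, the smallest that 3 against 2 allow, adjusted p = 0.286 and 0.237 over all genes). The shares of all genes higher in NB4 Control without overlap were 15.8% by number and 20.0% by percentile, and 23.7% were lower by number. The 3 NB4 Control libraries were called at 10.8 to 15.6 M effective reads and the 2 K562 Control libraries at 14.8 and 19.5 M effective reads. With depths matched, BCL2 held 17, 19 and 23 peaks in NB4 Control and 1 and 1 in K562 Control. With lists of equal length it held 16, 10 and 18 against 1 and 0. Beyond these counts, the part that depth plays in the difference was not tested.

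K562 and NB4 shared 1 BCL2 region. All 12 leukaemia libraries listed the region around coding exon 2 of 3 (chr18:63317558-63320068), which is the first coding exon. The summit in exon 2 was at 63318233 and 63318237 in K562 WT, at 63318238, 63318243 and 63318238 in NB4 Control and at 63318238, 63318235 and 63318238 in NB4 KD, a span of 10 bases. In K562 Control it was at 63318226 and 63318129, and in K562 KD at 63318216 and 63318176.

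The bases of this region that were under peaks numbered 357 and 325 in K562 WT, 286 and 785 in K562 Control and 344 and 371 in K562 KD. They were 1938, 2220 and 2125 in NB4 Control and 2509, 2294 and 2280 in NB4 KD. In NB4 the peaks ran from the start of intron 2 through exons 2 and 1 to bases upstream of the canonical transcript, without a gap in NB4 KD 1 and with gaps in the other 5 libraries. Both peaks of each K562 KD library lay within the stretch that K562 Control 2 covered with 1 peak, and K562 Control 1 listed the exon 2 part alone. The difference in BCL2 number between these groups rests on this stretch.

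The other 28 BCL2 regions were listed in NB4 libraries only, against 22.7% of all merged regions. Of these, 8 were listed in all 6 NB4 libraries, 5 in a single library and 15 in 2 to 5. Over all merged regions, 3.40% were listed in all 6 NB4 libraries and no other, and 21.9% in a single library of any line. Intron 2 held 23 of the 28 BCL2 regions. The strongest intronic region (chr18:63218532-63219060), 101437 bases from the gene start, had percentiles of 98.6, 78.8 and 98.2 in NB4 Control and 91.8, 81.4 and 88.7 in NB4 KD, with folds from 5.70 to 18.6. Another intronic region (chr18:63169236-63169681) had percentiles from 63.7 to 98.1 in 5 NB4 libraries and no peak in NB4 Control 1, the shallowest of the 14 libraries. Most intronic peaks were weaker, and their median percentile ran from 23.7 to 51.6 over the 6 NB4 libraries, against 76.1 to 84.1 for exonic peaks.

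The last exon of BCL2 carried 5 regions, of which 4 were listed in all 6 NB4 libraries. The region over the stop codon (chr18:63128435-63128881) had its strongest summit 95 bases before the stop codon. In the 3′ UTR, the region at chr18:63127883-63128347 had folds of 12.2, 15.9 and 12.6 in NB4 Control and 10.1, 11.96 and 10.7 in NB4 KD. The region at chr18:63127023-63127806 was the strongest of the exon by percentile, at 90.2, 92.6 and 95.3 in NB4 Control and 86.4, 93.9 and 93.5 in NB4 KD. The distal one, at chr18:63123886-63124108, lay 4593 bases past the stop codon and had percentiles from 20.7 to 70.0.

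Antisense peaks in BCL2 fell at 2 places. Both K562 WT libraries held one inside intron 2 (chr18:63206898-63207378), at percentiles 61.9 and 66.3, which no other library listed. NB4 Control 2 and 3 held one opposite exon 2 (chr18:63318076-63318343), at percentiles 24.5 and 20.2, on the strand opposite one of their strongest sense peaks.

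**Figure D3:**
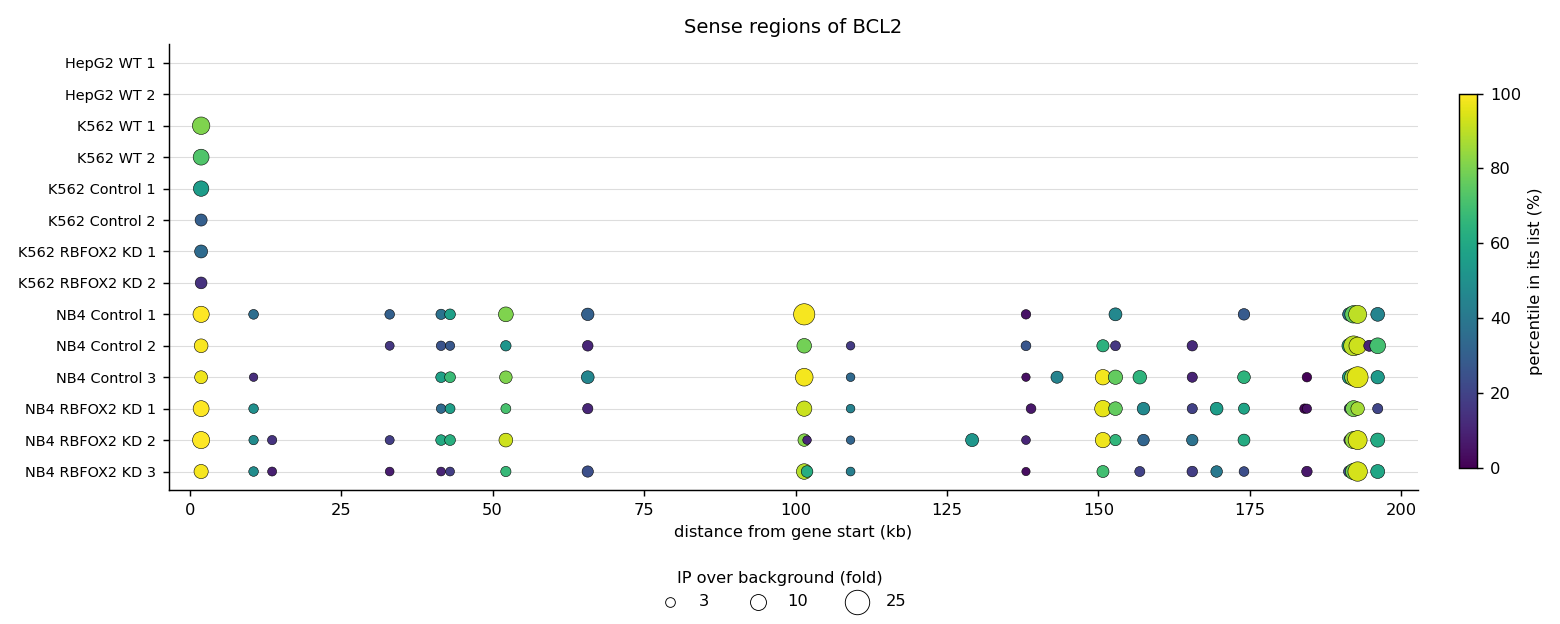
Sense regions of BCL2 along the gene in the 14 libraries. The x axis is the distance of the region's strongest summit from the gene start (kb) and each row is a library; dot area grows linearly with the fold of IP over background and colour gives the percentile in the list. The K562 rows hold a single dot at the exon 2 region, the HepG2 rows none, and the NB4 rows carry dots through intron 2 and a cluster in the last exon.

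ASB2 had no peak on either strand in any of the 14 libraries, over chr14:93934166-93976739 and the 1000 bases upstream of its start on the minus strand. Of protein-coding genes, 7405 (37.0%) had no sense peak in any library. The lists hold only peaks past a threshold, so ASB2 RNA below it would not appear in them. Of its 17 relatives and 4 partners in the ligase, 6 of the 21 were listed in all 14 libraries and 11 in none. ASB7 and ASB6 were the highest, with mean percentiles of 95.1 and 94.1 over the 14 libraries. CUL5, the cullin of this ligase, named here after its values were seen, was listed in 8 libraries, those of HepG2 and K562, and in no NB4 library.

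RBFOX2 KD was compared with Control within each line and over both lines for the 3 genes with peaks, and ASB2 was not tested. None of the 3 passed the test after adjustment over all genes (adjusted p from 0.797 to 1 in the exact permutation tests). In K562, MYB held 3 ± 1.41 peaks in KD and 3 ± 0 in Control (SD, n = 2 each), BCL2 2 ± 0 and 1 ± 0, and SP1 2 ± 0 and 3 ± 1.41. BCL2 was higher in number without overlap (exact permutation test, two-sided, p = 0.333, the smallest possible), while 2.79% of all genes were higher and 3.86% lower in this way. It was not higher with lists of equal length, where K562 Control held 1 and 0 BCL2 peaks and K562 KD 0 and 0.

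By percentile in K562, MYB was lower in KD without overlap, at 64.5 ± 2.08 against 68.3 ± 1.56 (SD, n = 2 each), where 12.4% of all genes were lower and 8.68% higher. BCL2 was 24.5 ± 14.5 in KD and 42.6 ± 17.7 in Control, and K562 KD 1 lay between both Control values. SP1 was 98.8 ± 0.217 in KD and 98.8 ± 0.231 in Control.

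In NB4, MYB held 3 peaks in every library, BCL2 22 ± 1 in KD and 19.7 ± 3.06 in Control (SD, n = 3 each, exact permutation p = 0.4), and SP1 2 ± 0 and 2.67 ± 0.577 (exact permutation p = 0.4). None of the 3 tested genes was free of overlap by number or percentile, against 6.64% of all genes higher and 1.36% lower by number and 11.4% higher and 5.22% lower by percentile. The KD libraries were deeper, at 16.8 to 21.9 M effective reads against 10.8 to 15.6 M effective reads in Control. With depths matched, BCL2 held 20, 22 and 23 peaks in KD and 17, 19 and 23 in Control.

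Counted in bases instead of peaks, BCL2 was covered over 7968, 7844 and 7889 bases in NB4 KD and over 5481, 6795 and 7731 in NB4 Control. These values did not overlap (exact permutation test, two-sided, p = 0.1, which no design of 3 against 3 can undercut, adjusted p = 0.465 over all genes), and 18.1% of all genes were higher and 3.35% lower without overlap in this measure, which was chosen after seeing the data. The lowest value came from the shallowest library. In K562 none of the 3 tested genes was free of overlap by covered bases, against 5.71% of all genes higher and 15.5% lower. The part that depth plays in this difference was not tested.

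Over both lines, the mean difference of KD from Control was 1.67 peaks for BCL2, with all 5 KD libraries above the mean of their own Control group (exact permutation p = 0.133). It was −0.833 peaks for SP1, with all 5 below that mean (exact permutation p = 0.2), and 0 for MYB. All 5 KD libraries held 2 SP1 peaks, and so did K562 Control 1 and NB4 Control 1. By percentile the mean difference was −6.13 points for MYB, with all 5 below (exact permutation p = 0.25), −8.89 for BCL2 and 0.566 for SP1. The share of all genes with all 5 KD libraries on the same side of the Control means is not given. None of the 3 tested genes was free of overlap, against 0.430% of all genes higher and 0.0291% lower by number and 1.24% higher and 0.552% lower by percentile. At an unadjusted exact p under 0.05 stood 1.04% of all genes by number and 3.46% by percentile, and 0 of 17210 after adjustment. The changes in the 2 lines were also compared with each other, and none of the 3 genes with peaks passed the test (smallest exact permutation p = 0.183, for the percentile of SP1), while 0.901% of all genes by number and 3.85% by percentile had an unadjusted exact p under 0.05.

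By region, 32 of the 39 sense regions were listed in at least 2 libraries and could be compared. In NB4, 3 were higher in KD and 1 lower without overlap, while 10.2% of all regions were higher and 2.83% lower. BCL2 intron 2 held 2 of the higher ones. At chr18:63309505-63309690 the percentile was 35.7, 0 and 13.2 in Control and 49.996, 47.7 and 48.6 in KD, and at chr18:63154339-63154788 it was 0, 12.1 and 10.1 in Control and 19.3, 37.7 and 18.3 in KD. The third was the stop-codon region of SP1, higher by 3.58 points. All 4 differences had p = 0.1 in the exact permutation test and adjusted p = 0.768 over all regions.

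The lower region was the one over the BCL2 stop codon, at percentiles 38.5, 60.9 and 56.1 in Control and 20.7, 14.8 and 24.1 in KD. Its fold was 6.66, 8.36 and 7.37 in Control and 3.39, 4.05 and 4.76 in KD, a difference of −0.88 on the log2 scale, where the median of all regions listed in the 6 libraries was 0.01. The summits were in the coding sequence in Control, at 63128712, 63128723 and 63128753. In KD they were in the 3′ UTR, at 63128534, 63128616 and 63128495. These values thus compare different places within the merged region. The neighbouring 3′ UTR region at chr18:63127883-63128347 was also lower by fold without overlap, by −0.31 on the log2 scale. Of the regions listed in all 6 NB4 libraries 10.5% were lower by fold without overlap, and 9.63% higher (exact permutation p = 0.1 for both BCL2 regions, adjusted p = 0.497). The other 2 constant regions of this exon had differences of −0.30 and −0.44, with overlap. In K562 the stop-codon region of MYB was the only one without overlap, with a difference of −3.79 percentile points, where 8.52% of all regions were lower and 7.70% higher. By fold none was free of overlap in K562, where 23.2% of the regions listed in all 4 libraries were higher and 9.60% lower. Over both lines none of the 32 was free of overlap by percentile, against 0.903% of all regions higher and 0.258% lower, nor by fold, against 2.92% and 0.740% of the regions listed in all 10 libraries.

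**Figure D4:**
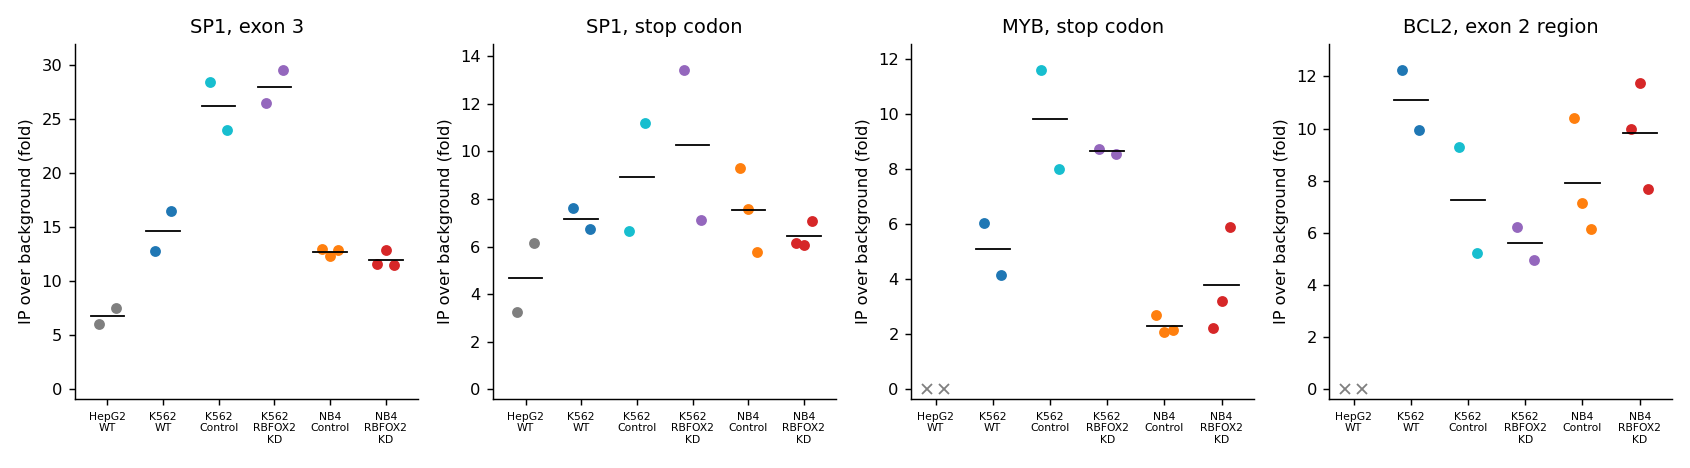
Fold of IP over background of 4 regions in the 14 libraries, by group on the x axis. Points are libraries, bars are means of groups in which every library lists the region, and crosses at 0 mark libraries that do not list it. The fold of the SP1 exon 3 region is highest in the 4 K562 hairpin libraries, and Control and KD points of a line overlap in all 4 panels.

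K562 Control and K562 WT are the same line with and without a hairpin vector, and they also differed in depth, at 14.8 and 19.5 against 25.6 and 24.9 M effective reads. By number MYB was 3 in Control and 4 in WT (p = 0.333 in the exact permutation test, the smallest possible), with the intron 1 peak described before absent, and 21.2% of all genes were lower and 7.93% higher without overlap by number. After depths were matched, MYB still held 4 peaks in each WT library and 3 in each Control library. With lists of equal length it held 3 and 2 in WT and 2 and 2 in Control. BCL2 was lower in Control by 33.9 percentile points without overlap, where 34.4% of all genes were lower and 18.8% higher (exact permutation p = 0.333, adjusted p = 0.627).

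Relatives of the 4 genes were counted for context. Of 13 genes of the BCL2 family, 4 were listed in all 14 libraries and 2 in none, with BCL2L1 and MCL1, both inhibitors of apoptosis, at mean percentiles of 96.1 and 83.5, and BBC3, an activator of apoptosis, at 83.4. Unlike BCL2, these 3 were listed in HepG2 too. BID, another activator that was picked after its values were seen, was listed in K562 WT and in NB4 at group means of 88.3, 67.3 and 94.9 and in no K562 Control or KD library. Of 8 SP genes 3 were listed in all 14, led by SP3 at 96.0. Of the MYB relatives, MYBL2 was listed in 13 libraries and MYBL1 in 5.

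Among other genes tied to m6A enzymes in leukaemia, RARA and SP2 were listed in all 14 libraries, CEBPA in HepG2 and NB4 only and LILRB4 in none. In NB4, where 11.4% of all genes were higher in KD and 5.22% lower without overlap by percentile, this held for 1 of 11 tested BCL2 relatives (lower), 0 of 7 SP genes, 1 of 2 MYB relatives (higher) and 2 of 7 ASB genes and partners (1 higher and 1 lower). In K562, where 8.68% of all genes were higher and 12.4% lower, 1 BCL2 relative was higher and 2 lower, 1 SP gene was higher and 1 lower, 0 MYB relatives stood apart, and 2 ASB genes or partners were higher and 1 lower.

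Over the 14 libraries, the protein-coding genes whose percentile varied most like that of MYB were NEIL3 (Pearson r = 0.978), VRK1 (0.976) and MAP7D3 (0.974). For BCL2 they were TPCN2 (r = 0.986), ENSG00000287725 (0.981), which shared its peaks with TPCN2 in most groups, and PIWIL4 (0.979). For SP1, whose percentile hardly varied, they were HMBOX1 (r = 0.921), COPG2 (0.915) and HYCC2 (0.910). The coefficient compares the pattern over libraries and not the level. COPG2 had a mean percentile of 0 in HepG2 and 11.2 in NB4 Control, far below SP1. TPCN2 had a mean of 50.9 in HepG2, where BCL2 had no peak. These correlations are descriptions over 14 libraries, which share cell line and depth within groups, among 12114 candidate genes.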

How the data were processed

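MeRIP-seq of caRNA was done in 3 human cell lines, and 14 deposited peak lists were analysed. Per the study's methods and the submitters' processing notes, the authors trimmed reads with Trimmomatic 0.39, aligned them to hg38 with HISAT2 2.1.0 and GENCODE release 29, split strands with SAMtools 1.9 and called peaks per library and strand with MACS version 2 (no model, extension of 150 bases, up to 5 duplicates, genome size 1.3e+08, q under 0.01). Replicates were not pooled, and the background used in calling was not stated. In each list the authors deposited the summit position with 4 measurements: the fold (a ratio of IP over local background), its significance as −log10 p-value and as −log10 q-value, and a score made from the latter. The study's methods call the replicates biological without saying how the cultures were separated, and p-values measure the spread between these libraries only.

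No expression table or count was used. The 496678 peaks on the autosomes, X and Y were used. For every gene the number of sense peaks and the percentile of the strongest one (rank by −log10 q-value) were computed per library. Effective reads were recovered from fold and p-value at each summit. Pileups came out whole (within 0.05) at 10.3% and 9.83% of summits in the HepG2 libraries and at 9.28% in NB4 Control 3, against 100% in the other 11, so the depth of those 3 is approximate, and their folds and ranks may not be on the scale of the others. Groups were compared by exact permutation over libraries, two-sided, across 17210 genes or 67518 merged regions with Benjamini-Hochberg adjustment. A gene or region is also given as not overlapping when every library of 1 group lay above every library of the other. The smallest p is 0.333 for 2 against 2, 0.1 for 3 against 3 and 0.0167 over both lines. Alternatives were peaks with −log10 q-value of at least 5, matched depth, equal list lengths, peak overlap instead of summit, both strands, a replicate block and leaving out each library. The tests of regions and of covered bases were chosen after seeing the data. The 4 genes and all gene lists were chosen with earlier results of these data known. Named genes are by rule the 4 members, the highest members of each list and the 3 genes most like each member. Other genes of the lists (such as BID, CUL5, CEBPA, LILRB4, SP2, MYBL1 and the single markers) were named after their values were seen. Printed sequences are the GGACT nearest to the summit of each gene's strongest region and, added after seeing the data, the DRACH nearest to the summits of the regions discussed. One item of a context list is not reported here. Scripts were tested on simulated data. Tools were Python 3.11.15, numpy 2.4.6, pandas 2.3.3, scipy 1.17.1, numba 0.67.0, matplotlib 3.10.9 and samtools 1.23.1.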

Additional observations from a re-analysis of the deposited data

How the results depend on the processing

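Values here are the numbers of the 4 genes, or of their 32 tested sense regions, whose groups did not overlap. ASB2, without peaks, was not tested. With lists of equal length, K562 KD against Control fell from 1 to 0 by number, K562 Control against WT from 1 to 0 by number and rose from 1 to 3 by percentile. The difference of BCL2 in K562 KD turned to −0.5 peaks, and that of SP1 between K562 WT and HepG2 to −0.140 percentile points. Equal lists also lowered the regions from 4 to 1 in NB4 KD, from 6 to 3 in K562 WT against HepG2 and from 6 to 3 in K562 Control against WT. With the full lists, 44.5% of all regions were higher and 12.9% lower without overlap in K562 WT against HepG2. In K562 Control against WT 15.5% were higher and 27.9% lower. With both strands, K562 Control against WT rose from 1 to 2 by number. With covered bases in place of peaks, which was chosen after seeing the data, K562 KD fell from 1 to 0 and NB4 KD rose from 0 to 1 (BCL2). When peaks had to cover at least 50% of a region, 1 SP1 region in place of 2 was listed in all 14 libraries. Matched depth, the q-value minimum, peak overlap and the removal of upstream sequence moved none of these counts by over 1.5 times, where each was run.

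Leaving out 1 library at a time gave, by number of peaks, 1 to 2 genes in K562 KD, 0 to 1 in NB4 KD, 0 to 1 over both lines, 2 to 3 in K562 WT against HepG2, 1 to 2 in NB4 against K562 Control and 1 to 2 in K562 Control against WT. By percentile it gave 1 to 3, 0 to 1, 0 to 1, 3 to 3, 2 to 3 and 2 to 2. For regions it gave 3 to 5, 6 to 8, 0 to 1, 6 to 8, 17 to 21 and 6 to 9. The shares of all genes and of all regions with a library left out are not given. Fewer libraries overlap less by construction. In NB4 KD the 0 genes became 1 without NB4 Control 1 or NB4 Control 3 by either measure and without NB4 KD 3 by percentile. Over both lines they became 1 without NB4 Control 3 by number and without NB4 Control 1 by percentile.

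Whether cultures were paired by replicate number was not stated. Deviations of same-numbered Control and KD libraries correlated at −0.0256 in K562 and at −0.0483, −0.0405 and −0.178 in NB4 over 5878 genes. Those of differently numbered NB4 libraries correlated at −0.0815 to 0.126. With 2 libraries a group the deviations mirror each other, so the K562 value cannot decide whether the replicate number pairs the samples. With the number as a replicate block, non-overlap within pairs rose from 1 to 2 genes by percentile in K562 KD, from 1 to 3 regions in K562 and from 4 to 7 in NB4, and over both lines BCL2 number kept its 1.67 peaks (exact sign-flip permutation p = 0.125).

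The lists hold only called peaks, without RNA levels, and within a line no exact p under 0.05 exists for 2 or 3 libraries a group.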
